A study of Mus musculus with 18 samples.

Results

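The genes described are 10 components of the circadian clock, namely Arntl, Clock, Per1, Per2, Per3, Cry1, Cry2, Nr1d1, Nr1d2 and Dbp, taken as a named list from the 52958 gene symbols measured in dermal papilla cells (DP) and the 27933 measured in hair follicle stem cells (HFSC) of mouse skin. All 10 passed the filter on low counts in both cell types. DP cells are the mesenchymal cells that instruct a follicle to grow, HFSC are the epithelial cells that regrow it, and both were purified by flow cytometry from female mice before RNA sequencing. The 18 libraries fell into 9 groups of 2. Wild-type C57BL/6 mice lost their adrenal glands, and so most of their corticosterone, by surgery (ADX) or were sham-operated (Sham), with DP and HFSC taken from each. A further wild-type C57BL/6 group, measured in HFSC alone, was adrenalectomised and fed corticosterone (ADX+CORT). In the other experiment, mice of 129/C57BL/6 background carried Pdgfra-CreER and floxed alleles of the glucocorticoid receptor (Pdgfra-CreER; GR fl/fl, called GR KO), and were set against wild-type mice of that background (Control). GR KO and Control mice alike received tamoxifen by intraperitoneal injection for 6 days, and DP and HFSC were taken from each. The Cre is driven from Pdgfra, a gene of dermal mesenchymal cells, so HFSC, which are epithelial, are not the cells in which it is driven. Age, pooling of animals and the hour of tissue collection are not given in the sources used here, and nothing there says that the replicates of a group came from separate mice, so the p-values measure the spread between these libraries.

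The clock is a loop of transcription factors. The products of Arntl (BMAL1) and Clock form a dimer that binds E-box motifs and switches on the Per and Cry genes, whose proteins accumulate and then block that dimer. Nr1d1 and Nr1d2 encode the nuclear receptors REV-ERB alpha and beta, which are also switched on through E-boxes and repress Arntl through ROR response elements. Dbp, an output gene driven through E-boxes, encodes an activator that binds D-box motifs, among them those of the Per genes. Levels of most of these mRNAs swing over the day, with Arntl out of phase with Dbp and Nr1d1, and glucocorticoids are known to induce Per1 directly through the glucocorticoid receptor. In skin the clock is known to run in hair follicle cells.

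Total counts ran from 6194415 to 13941628 per DP library and from 14067139 to 33014976 per HFSC library. All 17 marker genes of DP were detected in every DP group, with summed levels of 3451 to 7451 CPM per library (CPM, counts scaled by library size), and all 13 HFSC markers in every HFSC group, with sums of 22229.7 to 55927. Detection alone did not set the cells apart, since all 13 HFSC markers were also detected in every DP group, with sums of 409 to 1632 CPM. In DP libraries, 9 dermal fibroblast markers summed to 15779 to 75978 CPM, and 8 pericyte and smooth muscle markers to 348 to 9515 CPM. In HFSC libraries, 11 markers of differentiated epidermis summed to 3466 to 12283 CPM. The purity of the sorted cells was not determined. Nr3c1, which encodes the glucocorticoid receptor, fell in GR KO DP against Control DP by 2.73 on the log2 scale (SE 0.38, edgeR adjusted p = 0.0212). Its log2 fold change in GR KO HFSC was -0.53 (SE 0.24, edgeR adjusted p = 0.367). In sorted bulk samples, fewer cells of a type and less RNA per cell cannot be told apart.

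Levels were first ranked per length, as TPM (length-scaled transcript abundance) computed from the deposited counts. In DP, Dbp stood highest with a median of 96.1 over 8 libraries (range 13.1 to 122), and Nr1d1 followed with a median of 76.9 (14.6 to 157). Nr1d2 had a median of 28.8, Arntl 21.7, Clock 21.5, Cry2 18.5, Per1 16.0 and Per3 13.7. Cry1 at 6.43 and Per2 at 2.27 stood lowest, and Cry1 exceeded Per2 in 8 of 8 libraries. Nr1d2 exceeded Arntl in 7 of 8. The other neighbours in this order did not differ beyond their spread, since each exceeded the next in 3 to 5 of 8 libraries.

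In HFSC the same output and repressor genes led, again per length. Dbp had a median of 140.2 over 10 libraries (27.9 to 357), Nr1d1 119.9 (42.1 to 289) and Nr1d2 53.1 (36.4 to 75.1). Cry2 had a median of 38.6, Arntl 32.6, Per1 19.4, Clock 8.68, Cry1 6.34, Per3 4.62 and Per2 4.31. Arntl exceeded Per1 in 10 of 10 libraries, and Nr1d1 exceeded Nr1d2 in 9 of 10, whereas Dbp exceeded Nr1d1, Cry2 exceeded Arntl, Clock exceeded Cry1 and Per3 exceeded Per2 in 6 of 10 each, which is within their spread. The span from the lowest to the highest library differed widely among the members, from 1.84-fold for Clock and 2.06-fold for Nr1d2 to 9.96-fold for Per2 and 12.8-fold for Dbp in HFSC, and from 2.39-fold for Clock to 10.8-fold for Nr1d1 in DP. DP and HFSC were counted against different gene models, so levels were not compared between them.

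Promoters were searched for the motifs of the loop, and 4 of the 9 genes with a promoter in the table held one. RefSeq promoters of GRCm38.p6, from 250 bases before to 50 bases after a gene start, were found for 9 of the 10 genes, as 13 windows, and Per2 had none in the table used. The windows were searched on both strands for the E-box CACGTG, the D-box TTATGTAA, the ROR element core TAGGTCA, and the glucocorticoid response element taken as AGAACA and TGTTCT in that order with 3 bases between them. None of these motifs overlapped another in the 4 windows shown, which are the ones that held a match, with the matched bases in capitals.
Per1 (chr11:69098699-69098998, plus strand): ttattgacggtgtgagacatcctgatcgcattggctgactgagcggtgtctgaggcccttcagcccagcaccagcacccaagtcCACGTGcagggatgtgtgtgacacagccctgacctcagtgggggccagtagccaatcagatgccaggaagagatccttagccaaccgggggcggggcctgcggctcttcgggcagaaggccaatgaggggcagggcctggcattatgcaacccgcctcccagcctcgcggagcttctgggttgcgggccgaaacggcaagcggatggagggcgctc
Cry1 (chr10:85185005-85185304, minus strand): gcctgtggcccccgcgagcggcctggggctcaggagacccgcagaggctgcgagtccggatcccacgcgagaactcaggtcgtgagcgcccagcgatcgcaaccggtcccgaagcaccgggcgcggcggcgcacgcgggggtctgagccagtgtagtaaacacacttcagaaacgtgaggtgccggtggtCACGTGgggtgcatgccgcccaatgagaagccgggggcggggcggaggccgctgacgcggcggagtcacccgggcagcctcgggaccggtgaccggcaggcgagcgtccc
Per3 (chr4:151044616-151044915, minus strand): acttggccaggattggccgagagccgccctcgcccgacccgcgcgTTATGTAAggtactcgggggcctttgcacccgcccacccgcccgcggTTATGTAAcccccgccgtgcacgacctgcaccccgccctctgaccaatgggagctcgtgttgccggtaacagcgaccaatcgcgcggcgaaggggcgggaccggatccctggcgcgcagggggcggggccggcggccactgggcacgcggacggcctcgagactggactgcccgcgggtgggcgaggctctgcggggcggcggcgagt
Arntl (chr7:113207261-113207560, plus strand): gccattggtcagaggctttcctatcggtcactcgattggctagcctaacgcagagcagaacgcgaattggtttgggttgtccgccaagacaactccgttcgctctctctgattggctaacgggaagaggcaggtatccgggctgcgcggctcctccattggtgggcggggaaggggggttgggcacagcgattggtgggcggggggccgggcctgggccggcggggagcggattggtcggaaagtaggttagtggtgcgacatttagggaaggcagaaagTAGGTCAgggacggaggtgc
The E-box began 166 bases before the start in Per1 and 60 bases before the start in Cry1. Per3 held 2 D-boxes, which began 205 and 158 bases before its start, and Arntl held 1 ROR element core, which began 30 bases after it. The windows of the other 5 genes, Cry2, Clock, Dbp, Nr1d1 and Nr1d2, held none of the motifs searched. Among all 32851 promoter windows of the table, 7.15% held the E-box, 0.938% the D-box and 2.61% the ROR element core. Counted per gene, over 27025 genes, these shares were 8.09%, 1.11% and 2.97%. Of the 9 members with a window, 2 held the E-box, 1 the D-box and 1 the ROR element core. The share of all genes that held any of these motifs was not determined. The spaced glucocorticoid element was found in 3 of the 32851 windows, and neither it nor TGTTCT alone, which 19% of all windows held, was found in a window of a member. With the spaced element in so few of all windows, its absence from those of the members says nothing particular about them. Only exact strings in these windows were searched, so an absence does not show that a gene lacks a variant of the motif or a site elsewhere. A match is a string of letters in a window and was not tested as a binding site.

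In some groups the replicates differed more in these genes than in most others, and Sham DP and ADX+CORT HFSC had the widest such gaps. In Sham DP, Dbp stood at 80.8 and 10.6 CPM and Nr1d1 at 206 and 23.6 CPM in replicates 1 and 2, while Arntl stood at 33.1 and 72.2 CPM. In ADX+CORT HFSC, Dbp stood at 17.1 and 175 CPM, Nr1d1 at 78.3 and 242 CPM, Per3 at 5.31 and 28.2 CPM and Arntl at 76.2 and 46.2 CPM. Replicate 2 of Sham DP and replicate 1 of ADX+CORT HFSC were thus low in Dbp and Nr1d1 and high in Arntl relative to their partners. Of the 13000 genes with at least 5 CPM in Sham DP, 1.48% had a gap between the replicates at least as large as that of Dbp and 1.23% as large as that of Nr1d1. In ADX+CORT HFSC, the gap of Dbp was matched by 0.112% of 10735 such genes, that of Per2 by 0.186% and that of Nr1d1 by 0.894%. The median gap over all genes at that level was 1.41-fold in Sham DP and 1.19-fold in ADX+CORT HFSC, against 1.86-fold and 1.83-fold over the 10 clock genes. It was 1.63-fold over the clock genes and 1.28-fold over all genes in GR KO HFSC. In the other 6 groups the clock genes lay nearer to all genes, from 1.26-fold against 1.38-fold in ADX DP to 1.32-fold against 1.24-fold in ADX HFSC.

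Between the replicates of a group, Dbp and Nr1d1 were higher in the same library in 9 of 9 groups, Cry2 and Dbp in 8 of 9, and Arntl was higher in the library with less Dbp in 7 of 9. The first 2 were, with Cry2 and Nr1d1 (8 of 9), the most alike of all 45 pairs of members and were picked after their values were seen. Opposite directions in 7 of 9 groups were also seen for Arntl and Nr1d1, Cry1 and Dbp, Cry1 and Nr1d1, and Per3 and Arntl. No pair was opposite in more groups. Other pairs were nearer even, such as Per1 and Dbp (6 of 9), Per3 and Dbp (5 of 9) and Clock and Dbp (4 of 9). The log2 ratio of Dbp to Arntl was 1.29 and -2.76 in the Sham DP replicates, -2.16 and 1.92 in the ADX+CORT HFSC replicates, and 1.55 and -0.88 in the GR KO HFSC replicates. It was -0.05 and 1.39 in the GR KO DP replicates, and above 0 in both replicates of the other 5 groups. In Sham DP, summed levels of 11 of 11 markers of differentiated epidermis were 4180.0 CPM in replicate 2 and 1114 CPM in replicate 1, and those of 17 of 17 DP markers were 3451 and 6321 CPM; their part in the gap was not tested. In ADX+CORT HFSC the sum of 13 HFSC markers was 42331 and 44300.3 CPM, close between the replicates. Other lists in replicates 1 and 2 lay further apart, with 153 and 56.2 CPM for 6 markers of dividing cells. Sums were 63.8 and 133 CPM for 8 immune markers and 219 and 363 CPM for 9 dermal fibroblast markers. For 11 markers of differentiated epidermis they were 6305 and 8603 CPM. The part of these lists in the gap was not tested. Values without Sham DP replicate 2 and without ADX+CORT HFSC replicate 1 are given beside the results below.

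**Figure D1:**
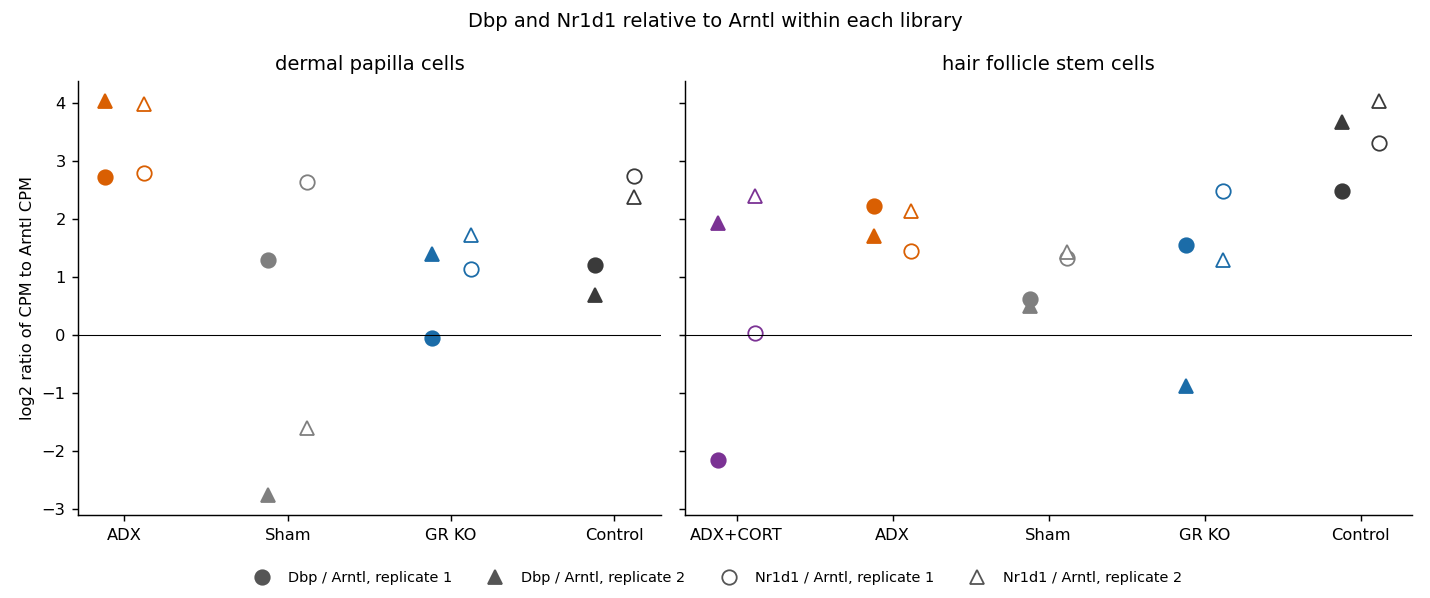
Log2 ratio of Dbp (filled) and Nr1d1 (open) to Arntl in CPM within each of the 18 libraries, by group, with circles for replicate 1 and triangles for replicate 2. The Sham DP replicates lie at 1.29 and -2.76 for Dbp, and the ADX+CORT HFSC replicates at -2.16 and 1.92.

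GR KO against Control DP was the only one of the 6 group comparisons in which clock genes passed in edgeR. Per1 fell and Per2 rose past the threshold of an edgeR adjusted p of 0.05, that is 2 of 10 genes, where 1.54% of the 23463 genes tested in this comparison passed. Per1, which glucocorticoids are known to induce, stood at 27.3 and 31.9 CPM in GR KO DP, against 111 and 88.7 CPM in Control DP. Per2, its partner in the repressor complex, stood at 68.9 and 31.3 CPM in GR KO DP, against 9.85 and 8.37 CPM in Control DP. The GR KO libraries lay below both Control libraries for Per1 and above both for Per2.

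The log2 fold change of Per1 was -1.75 (SE 0.29, edgeR adjusted p = 0.0312), with mean CPM of 29.6 ± 3.3 in GR KO and 99.8 ± 15.7 in Control (SD, n = 2 each). That of Per2 was 2.46 (SE 0.51, edgeR adjusted p = 0.0481), with mean CPM of 50.1 ± 26.6 in GR KO and 9.11 ± 1.05 in Control (SD, n = 2 each). The log2 ratio of Per1 to Per2 CPM within a library was -1.34 and 0.03 in GR KO DP, against 3.49 and 3.41 in Control DP, and 1.53 and 1.86 in ADX DP, against 1.59 and 2.74 in Sham DP. The Per1 call was lost without each of the libraries compared: edgeR adjusted p = 0.124 without GR KO replicate 1, 0.0758 without GR KO replicate 2, 0.0807 without Control replicate 1 and 0.104 without Control replicate 2. The Per2 call was lost without GR KO replicate 1 (0.348) and without Control replicates 1 (0.232) or 2 (0.481), and stayed without GR KO replicate 2 (0.0459). It was also lost with median-of-ratios scaling (0.0548) and with only the groups compared in the fit (0.0709). DESeq2 called Per1 (adjusted p = 2.35e-05), Per2 (0.000551) and Per3, that is 3 of 10 genes, where it called 8.01% of its genes.

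Per3 and both Cry genes lay higher in GR KO DP without passing in edgeR. Per3 stood at 45.4 and 75.5 CPM in GR KO DP, against 22.0 and 18.1 CPM in Control DP (log2 fold change 1.59, SE 0.38, edgeR adjusted p = 0.0729, DESeq2 adjusted p = 0.0141). Cry1, a strong repressor of the BMAL1 and CLOCK dimer, stood at 43.6 and 26.8 CPM in GR KO DP, against 10.6 and 13.3 CPM in Control DP (1.56, SE 0.48, edgeR adjusted p = 0.149). Cry2 stood at 59.1 and 59.3 CPM in GR KO DP, against 45.6 and 31.7 CPM in Control DP (0.61, SE 0.33). For Per3, Cry1 and Cry2 alike, both GR KO libraries lay above both Control libraries.

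The REV-ERB genes lay on opposite sides of Control in GR KO DP. Nr1d1 stood at 134 and 142 CPM in GR KO DP, against 317 and 267 CPM in Control DP (log2 fold change -1.08, SE 0.69), and both GR KO libraries were lower. Nr1d2 stood at 149.9 and 191 CPM in GR KO DP, against 79.0 and 103 CPM in Control DP (0.91, SE 0.36), and both were higher. Neither passed, with edgeR adjusted p = 0.513 for Nr1d1 and 0.266 for Nr1d2. Of the activator pair, Clock stood at 72.5 and 81.3 CPM in GR KO DP, against 46.4 and 48.8 CPM in Control DP (0.69, SE 0.35). Arntl at 60.7 and 43.3 CPM in GR KO DP, against 47.3 and 51.8 CPM in Control DP, and Dbp at 58.8 and 113 CPM in GR KO DP, against 109 and 83.6 CPM in Control DP, overlapped between the groups.

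In all, 8 of the 10 genes had GR KO and Control DP libraries that did not overlap, 6 higher and 2 lower, where 51.6% of all genes tested did not overlap, 31.6% higher and 20.0% lower. The median log2 fold change of the 10 genes was 0.65, against 0.17 over all genes. At an unadjusted edgeR p under 0.05, 5 of the 10 genes passed, where 15.2% of all genes did. Summed levels of 9 of 9 dermal fibroblast markers were 65508 and 75978 CPM in GR KO DP, against 24896 and 15779 CPM in Control DP, those of 8 immune markers were 2884 and 43.4 CPM in GR KO DP, against 364 and 188 CPM in Control DP (with Cd207 at 0 in Control), and those of 11 markers of differentiated epidermis were 710.4 and 62.1 CPM in GR KO DP, against 2349 and 975 CPM in Control DP. The 17 DP markers summed to 3864 and 4062 CPM in GR KO DP, against 4626 and 7451 CPM in Control DP. Sums of 13 HFSC markers were 1632 and 1215 CPM in GR KO DP, against 831 and 439.9 CPM in Control DP. For 6 markers of dividing cells the sums were 116 and 55.3 CPM in GR KO DP, against 22.9 and 7.62 CPM in Control DP. For 6 melanocyte markers they were 25.9 and 30.1 CPM in GR KO DP, against 68 and 91.1 CPM in Control DP. The part of these lists in the clock gene differences was not tested.

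**Figure D2:**
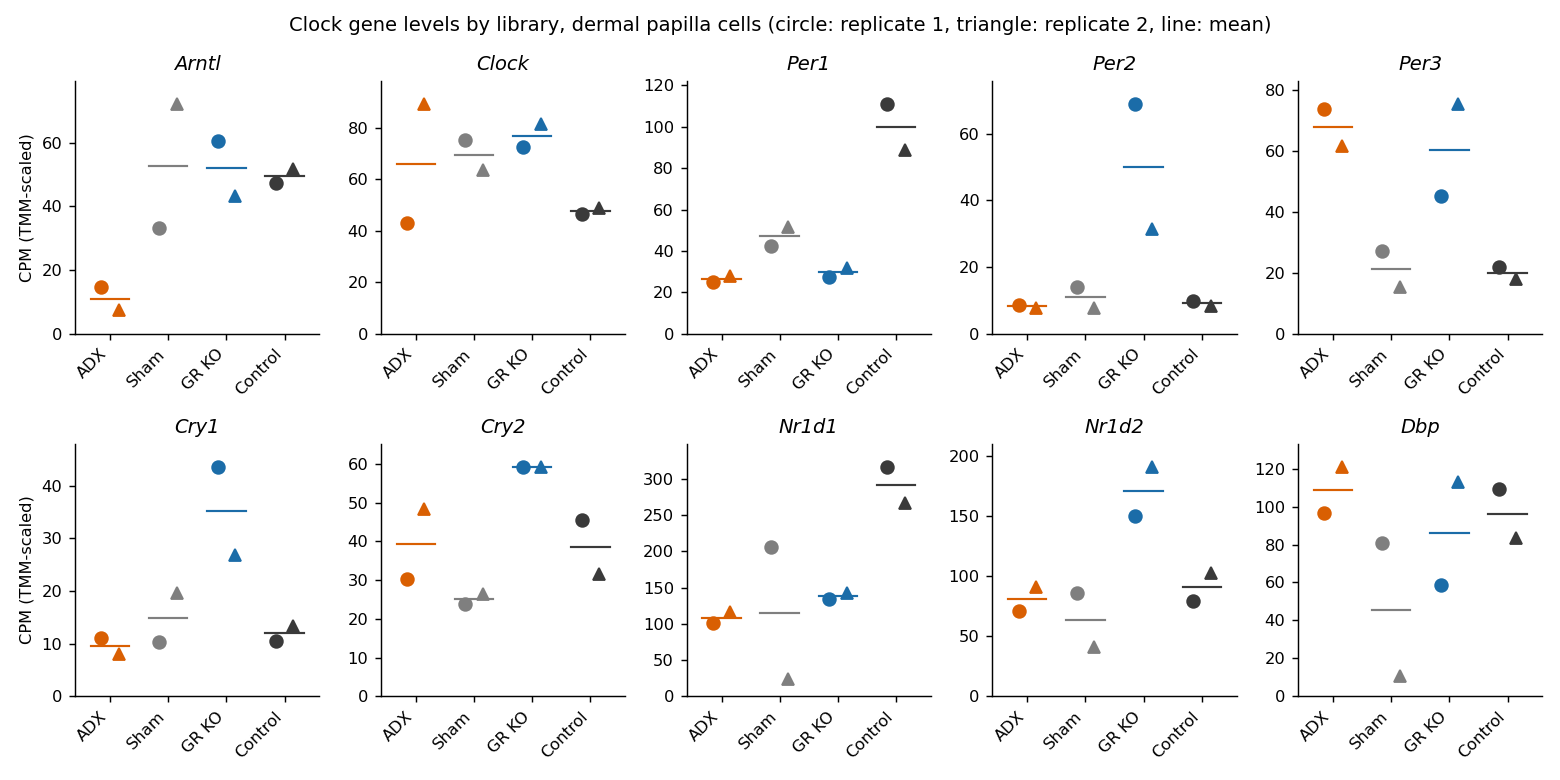
CPM on TMM-scaled library sizes of each clock gene in the 8 DP libraries, by group, with a circle for replicate 1, a triangle for replicate 2 and a line at the mean. GR KO libraries lie at 27.3 and 31.9 CPM for Per1 and at 68.9 and 31.3 CPM for Per2, against 111 and 88.7 CPM and 9.85 and 8.37 CPM in Control.

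Estimated counts per transcript, used for DP only, are given for some of these genes. The transcripts were picked after their values were seen, no test was run on them, and the counts are not scaled for depth (13755269 and 13941628 in all in GR KO DP, against 13264002 and 11953162 in Control DP). Clock-201, a protein-coding transcript of Clock, had 311 and 332 estimated counts in GR KO DP, against 51.8 and 43.4 in Control DP, while the longer Clock-205 had 231 and 328 in GR KO DP, against 410 and 347 in Control DP. Nr1d2-202, annotated as a retained intron, had 289 and 245 estimated counts in GR KO DP, against 13.8 and 5.25 in Control DP, and the protein-coding Nr1d2-201 had 1398 and 1989 in GR KO DP, against 951 and 1088 in Control DP. Per3-202, also a retained intron, had 196 and 388 in GR KO DP, against 84.0 and 38.9 in Control DP, and the protein-coding Per3-201 had 279 and 215 in GR KO DP, against 136 and 95.4 in Control DP. Retained-intron transcripts held 10.4% and 11.7% of the counts of the 10 genes in GR KO DP, against 4.53% and 4.27% in Control DP; over all genes they held 5.78% and 6.58% in GR KO DP, against 4.96% and 5.1% in Control DP. When only protein-coding transcripts were summed, the Per3 log2 fold change was 0.89 (edgeR adjusted p = 0.541), and Per2, at 2.32, missed the threshold (0.0542). Counts of Per1 were assigned to different transcripts in the surgery and deletion experiments. Per1-203 had 139 and 163 estimated counts in ADX DP, against 449 and 557 in Sham DP, and was at 0 in GR KO and Control DP. The ADX DP libraries held 6194415 and 7784320 counts in all, against 11425379 and 11329227 in Sham DP, so these unscaled counts overstate the difference. Per1-201 had 0 and 224 in GR KO DP, against 444 and 484 in Control DP, and was at 0 in ADX and Sham DP; strain and experiment cannot be told apart here. The protein-coding transcript of Per3 held 22.5% to 70.9% of that gene's counts in DP libraries, and the protein-coding transcripts of Clock 62.1% to 78.8%.

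Adrenalectomy was compared with sham operation in DP of mice without the receptor deletion. No corticosterone-fed group was measured in DP, so loss of corticosterone cannot be told apart there from other effects of removing the glands. In ADX DP, Arntl and Per1 were lower and Per3 higher in both libraries, and none of the 10 genes passed in edgeR, where 0.0170% of the 23463 genes passed. At an unadjusted edgeR p under 0.05, 3 of the 10 passed (11.7% of all genes), and DESeq2 called 2, Per3 and Arntl, where it called 2.50% of its genes. Arntl stood at 14.6 and 7.38 CPM in ADX DP, against 33.1 and 72.2 CPM in Sham DP. Its fold change on the log2 scale, -2.26 (SE 0.46, edgeR adjusted p = 0.183, DESeq2 adjusted p = 0.00234), was the largest of the 10 in this comparison, and without Sham replicate 2 it was -1.63.

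Per3 stood at 73.9 and 61.8 CPM in ADX DP, against 27.3 and 15.4 CPM in Sham DP (log2 fold change 1.67, SE 0.38, edgeR adjusted p = 0.209, DESeq2 adjusted p = 0.00808). Per1 stood at 24.9 and 28.1 CPM in ADX DP, against 42.5 and 51.7 CPM in Sham DP (-0.83, SE 0.28, edgeR adjusted p = 0.32). Without Sham replicate 2 these log2 fold changes were 1.27 for Per3 and -0.73 for Per1.

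Dbp and Nr1d1 depended on the Sham replicate used. Dbp stood at 96.4 and 121 CPM in ADX DP, against 80.8 and 10.6 CPM in Sham DP, and its log2 fold change of 1.25 (SE 0.70) was 3.31 without Sham replicate 1 and 0.38 without Sham replicate 2. Nr1d1 stood at 101 and 116 CPM in ADX DP, between the 206 and 23.6 CPM of Sham DP, and its log2 fold change of -0.09 (SE 0.69) was 2.16 without Sham replicate 1 and -0.98 without Sham replicate 2. Cry2 stood at 30.2 and 48.4 CPM in ADX DP, against 23.9 and 26.5 CPM in Sham DP. Clock (42.9 and 89.2 CPM in ADX DP, against 75.3 and 63.6 CPM in Sham DP), Nr1d2 (71.4 and 91.2 CPM in ADX DP, against 85.6 and 40.7 CPM in Sham DP), Cry1 (11 and 8.08 CPM in ADX DP, against 10.3 and 19.6 CPM in Sham DP) and Per2 (8.62 and 7.73 CPM in ADX DP, against 14.1 and 7.73 CPM in Sham DP) overlapped between the groups. Without Sham replicate 2 the log2 fold change of Cry1 was -0.15, against -0.65 with it, that of Nr1d2 -0.12, against 0.36 with it, and that of Per2 -0.83, against -0.42 with it. Those of Clock (-0.07 with it, -0.24 without) and Cry2 (0.64 with it, 0.67 without) moved less. Taking higher and lower together, 5 of the 10 genes did not overlap, where 43.3% of all genes did not. Summed levels of 11 markers of differentiated epidermis were 518 and 303 CPM in ADX DP, against 1114 and 4180.0 CPM in Sham DP, and those of 8 pericyte and smooth muscle markers were 5685 and 983 CPM in ADX DP, against 348 and 428 CPM in Sham DP; their part was not tested.

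The difference between the effect of receptor deletion and the effect of adrenalectomy was tested in DP as an interaction. For none of the 10 genes did it pass in edgeR, where 0.477% of all genes passed, DESeq2 called 2, where it called 6.43% of its genes, and 4 of the 10 had an unadjusted p under 0.05, as had 15.3% of all genes. Per2 had a difference of 2.88 on the log2 scale (SE 0.70, edgeR adjusted p = 0.0867, DESeq2 adjusted p = 0.0127), with log2 fold changes of 2.46 in GR KO DP and -0.42 in ADX DP; without Sham replicate 2 it was 3.18. Arntl had a difference of 2.33 (SE 0.63, edgeR adjusted p = 0.113, DESeq2 adjusted p = 0.0376), with 0.07 in GR KO DP and -2.26 in ADX DP; without Sham replicate 2 it was 1.58. Cry1 had a difference of 2.20 (SE 0.68, edgeR adjusted p = 0.155), with 1.56 in GR KO DP and -0.65 in ADX DP; without Sham replicate 2 it was 1.59. Per1 had a difference of -0.92 (SE 0.40, edgeR adjusted p = 0.307), with -1.75 in GR KO DP and -0.83 in ADX DP (-1.15 without Sham replicate 2). Nr1d1 had a difference of -0.99 (SE 0.97), which passed without Sham replicate 1, at -3.23 (edgeR adjusted p = 0.032), and was -0.23 without Sham replicate 2. For Per3 the difference was -0.08 (SE 0.53), with 1.59 in GR KO DP and 1.67 in ADX DP (0.18 without Sham replicate 2). The experiments differ in strain and in tamoxifen, which cannot be told apart from the kind of intervention.

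In HFSC the surgery groups set removal of the adrenal glands, alone or followed by corticosterone feeding, against sham operation. None of the 10 genes passed in edgeR for ADX against Sham, where 0.295% of the 15231 genes tested did, and DESeq2 called none either, where it called 6.04% of its genes; 2 of the 10, Per3 and Arntl, had an unadjusted edgeR p under 0.05, as had 15.2% of all genes. Per1 stood at 20.0 and 40.9 CPM in ADX HFSC, against 55.9 and 59.4 CPM in Sham HFSC (log2 fold change -0.92, SE 0.43, edgeR adjusted p = 0.339). Per3 stood at 35.0 and 27.6 CPM in ADX HFSC, against 11.3 and 12.6 CPM in Sham HFSC (1.39, SE 0.62, edgeR adjusted p = 0.313). Arntl stood at 21.1 and 37.5 CPM in ADX HFSC, against 62.1 and 45.2 CPM in Sham HFSC (-0.87, SE 0.37, edgeR adjusted p = 0.279). In each of these 3 genes the ADX libraries lay on the same side of Sham as they did in DP. Log2 fold changes had opposite signs in DP and HFSC for Per2 (-0.42 and 1.16), Cry1 (-0.65 and 0.71) and Cry2 (0.64 and -0.17). Those of the other members had the same sign in both. The share of all genes that had the same sign in DP and HFSC was not determined.

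Of the remaining members, Per2 stood at 14.1 and 9.89 CPM in ADX HFSC, against 8.34 and 2.33 CPM in Sham HFSC (log2 fold change 1.16, SE 0.75, edgeR adjusted p = 0.487). Cry1 stood at 13.2 and 11.3 CPM in ADX HFSC, against 5.70 and 9.25 CPM in Sham HFSC, and Nr1d2 at 120.2 and 116 CPM in ADX HFSC, against 104 and 91.1 CPM in Sham HFSC. Dbp stood at 98.1 and 123 CPM in ADX HFSC, against 94.6 and 63.4 CPM in Sham HFSC, and Clock at 49.3 and 37.8 CPM in ADX HFSC, against 52.7 and 57.2 CPM in Sham HFSC. These 5 genes did not overlap between the groups, Clock lower and the others higher in ADX, whereas Nr1d1 (57.5 and 165 CPM in ADX HFSC, 156 and 121 CPM in Sham HFSC) and Cry2 (73.0 and 97.7 CPM in ADX HFSC, 99.9 and 91.6 CPM in Sham HFSC) did. Over the 10 genes 8 did not overlap, 5 higher and 3 lower, where 49.4% of all genes did not, and the median log2 fold change was 0.05. Summed levels of 13 HFSC markers were 22229.7 and 33216 CPM in ADX HFSC, against 44443 and 49224 CPM in Sham HFSC, and those of 6 markers of dividing cells were 681 and 235 CPM in ADX HFSC, against 79.4 and 105 CPM in Sham HFSC; their part was not tested.

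With corticosterone feeding, 1 of the 10 clock genes, Arntl, had ADX+CORT libraries that both lay above ADX, as had 26.7% of all genes. It stood at 76.2 and 46.2 CPM in ADX+CORT HFSC, against 21.1 and 37.5 CPM in ADX HFSC and 62.1 and 45.2 CPM in Sham HFSC. The log2 fold change was 1.06 against ADX (SE 0.37, edgeR adjusted p = 0.14, DESeq2 adjusted p = 0.0611) and 0.19 against Sham (SE 0.36, edgeR adjusted p = 0.988). Without ADX+CORT replicate 1 they were 0.66 and -0.22. None of the 10 genes passed in edgeR against ADX or against Sham, as did 0 of all 15231 genes in either comparison, and DESeq2 called none of the 10, where it called 9.53% of its genes against ADX and 0.438% against Sham. At an unadjusted edgeR p under 0.05 stood 1 of the 10 against ADX, where 19.3% of all genes stood, and 0 against Sham, where 6.09% did. The comparisons of ADX with Sham and of ADX+CORT with ADX share the ADX libraries, so opposite signs between them are not independent.

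Most of the other ADX+CORT libraries overlapped those of ADX. Per1 stood at 29.1 and 57.2 CPM in ADX+CORT HFSC, which overlapped both ADX and Sham; its log2 fold change against ADX of 0.50 (SE 0.43) was 0.91 without ADX+CORT replicate 1 and -0.10 without replicate 2. Per3 stood at 5.31 and 28.2 CPM in ADX+CORT HFSC, and its log2 fold change against ADX of -0.90 (SE 0.61) was -0.15 without replicate 1 and -2.59 without replicate 2. Dbp stood at 17.1 and 175 CPM in ADX+CORT HFSC, with a log2 fold change against ADX of -0.20 (SE 0.74) that was 0.67 without replicate 1 and -2.72 without replicate 2. Nr1d1 at 78.3 and 242 CPM, Per2 at 1.64 and 11.4 CPM, Cry2 at 92.0 and 144 CPM and Clock at 50.6 and 36.6 CPM in ADX+CORT HFSC also overlapped ADX, and Clock lay below Sham. Their log2 fold changes against ADX were 0.52 for Nr1d1 (1.12 without replicate 1), -0.88 for Per2 (-0.07), 0.47 for Cry2 (0.75) and 0.0036 for Clock (-0.25). Cry1 stood at 13.2 and 11.2 CPM in ADX+CORT HFSC, which overlapped ADX and lay above Sham (0.71 against Sham, 0.59 without replicate 1). Nr1d2 at 66.3 and 113 CPM lay below ADX (-0.40, and -0.06 without replicate 1). Against ADX and against Sham alike, 2 of the 10 genes did not overlap, where 52.6% and 40.7% of all genes did not.

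**Figure D3:**
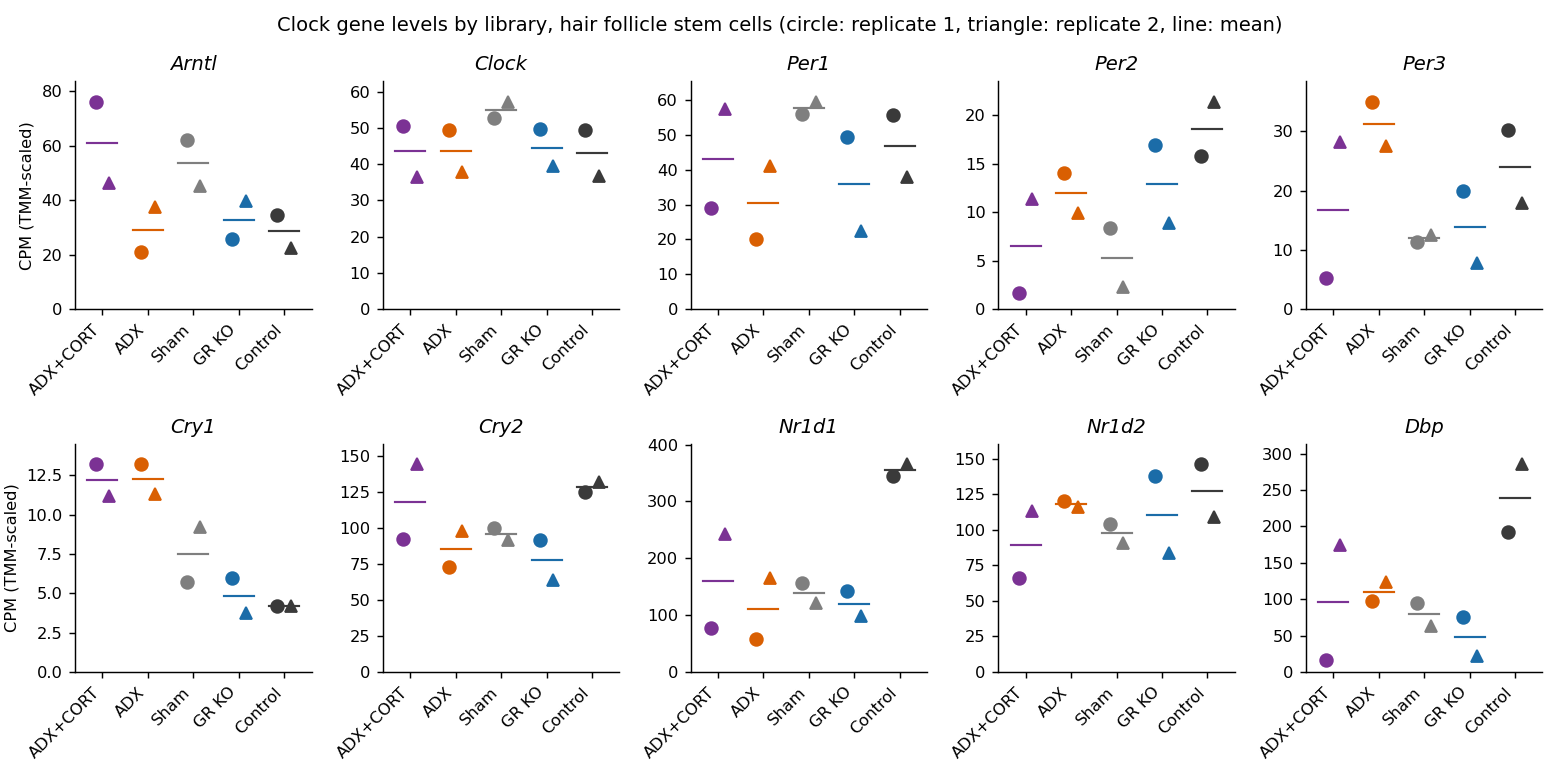
CPM on TMM-scaled library sizes of each clock gene in the 10 HFSC libraries, by group, with a circle for replicate 1, a triangle for replicate 2 and a line at the mean. Arntl lies at 76.2 and 46.2 CPM in ADX+CORT, against 21.1 and 37.5 CPM in ADX, and Dbp at 75.6 and 21.6 CPM in GR KO, against 192 and 285 CPM in Control.

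In HFSC of GR KO mice, whose dermal cells carry the deletion, the output gene Dbp and the repressor Nr1d1 were lower than in Control. Dbp stood at 75.6 and 21.6 CPM in GR KO HFSC, against 192 and 285 CPM in Control HFSC (log2 fold change -2.29, SE 0.77, edgeR adjusted p = 0.206). Nr1d1 stood at 143 and 97.7 CPM in GR KO HFSC, against 345 and 365 CPM in Control HFSC (-1.56, SE 0.50, edgeR adjusted p = 0.175). Cry2 stood at 91.6 and 63.6 CPM in GR KO HFSC, against 125 and 132 CPM in Control HFSC (-0.72, SE 0.27, edgeR adjusted p = 0.254). For these 3 genes both GR KO libraries lay below both Control libraries, the Control levels of Dbp and Nr1d1 being the highest of the 5 HFSC groups.

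None of the 10 genes passed in edgeR, where 0.985% of the 15231 genes did, and DESeq2 called none, where it called 4.91% of its genes; 3 of the 10, Dbp, Nr1d1 and Cry2, had an unadjusted edgeR p under 0.05, as had 13.1% of all genes. When only the GR KO and Control HFSC libraries were fitted, Dbp and Nr1d1 passed, with edgeR adjusted p = 0.0485 and 0.0409. Without GR KO replicate 2, the log2 fold changes were -1.66 for Dbp and -1.32 for Nr1d1. The other 7 genes overlapped. Per1 stood at 49.3 and 22.5 CPM in GR KO HFSC, against 55.5 and 37.8 CPM in Control HFSC, Per2 at 16.9 and 8.92 CPM in GR KO HFSC, against 15.8 and 21.4 CPM in Control HFSC, and Per3 at 20.0 and 7.80 CPM in GR KO HFSC, against 30.2 and 17.9 CPM in Control HFSC. Arntl stood at 25.8 and 39.8 CPM in GR KO HFSC, against 34.7 and 22.6 CPM in Control HFSC.

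The median log2 fold change over the 10 genes in GR KO HFSC was -0.45, and 3 of the 10 did not overlap, all lower, where 38.5% of all genes did not overlap. Cry1 at 5.96 and 3.73 CPM in GR KO HFSC, against 4.19 and 4.19 CPM in Control HFSC, Clock at 49.6 and 39.6 CPM in GR KO HFSC, against 49.5 and 36.7 CPM in Control HFSC, and Nr1d2 at 138 and 83.4 CPM in GR KO HFSC, against 146 and 109 CPM in Control HFSC, completed the members. Summed levels of 6 markers of dividing cells were 505 and 965 CPM in GR KO HFSC, against 133 and 60.2 CPM in Control HFSC, those of 13 HFSC markers were 23842 and 36243 CPM in GR KO HFSC, against 47892 and 55927 CPM in Control HFSC, and those of 11 markers of differentiated epidermis were 12283 and 6238 CPM in GR KO HFSC, against 3596 and 4295 CPM in Control HFSC. Their part in the differences of Dbp and Nr1d1 was not tested. Overlaps with genes on the opposite strand were taken from the GENCODE annotation used for DP. Exons of Dbp (chr7:45705088-45710203) share 539 bases, 18% of its exon bases, with Sphk2. Exons of Nr1d1 (chr11:98767932-98775333) share 263 bases, 8.5%, with Thra. Libraries without strand marking cannot tell such reads apart. The HFSC counts used a Dbp model of 1678 bases, against 2993 exon bases in GENCODE, and the overlap of that model was not determined.

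The difference between the effect of receptor deletion and that of adrenalectomy was also tested in HFSC. No gene passed in edgeR, of the 10 or of all 15231, and DESeq2 called none of the 10 and 0.652% of its genes. Of the 10, Dbp with -2.78 (SE 1.06, edgeR adjusted p = 0.415) and Per3 with -2.17 (SE 0.87, edgeR adjusted p = 0.431) had an unadjusted p under 0.05, as had 10.6% of all genes. The log2 fold changes behind them were -2.29 in GR KO HFSC and 0.48 in ADX HFSC for Dbp, and -0.79 in GR KO HFSC and 1.39 in ADX HFSC for Per3. Here too the experiments differ in strain and in tamoxifen, which cannot be told apart from the kind of intervention. Sums of 8 immune markers were 2498 and 3029 CPM in GR KO HFSC and 2799 and 2582 CPM in Control HFSC. In ADX HFSC these sums were 111 and 179 CPM, and in Sham HFSC 65.2 and 90.0 CPM. Their part was not tested.

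**Figure D4:**
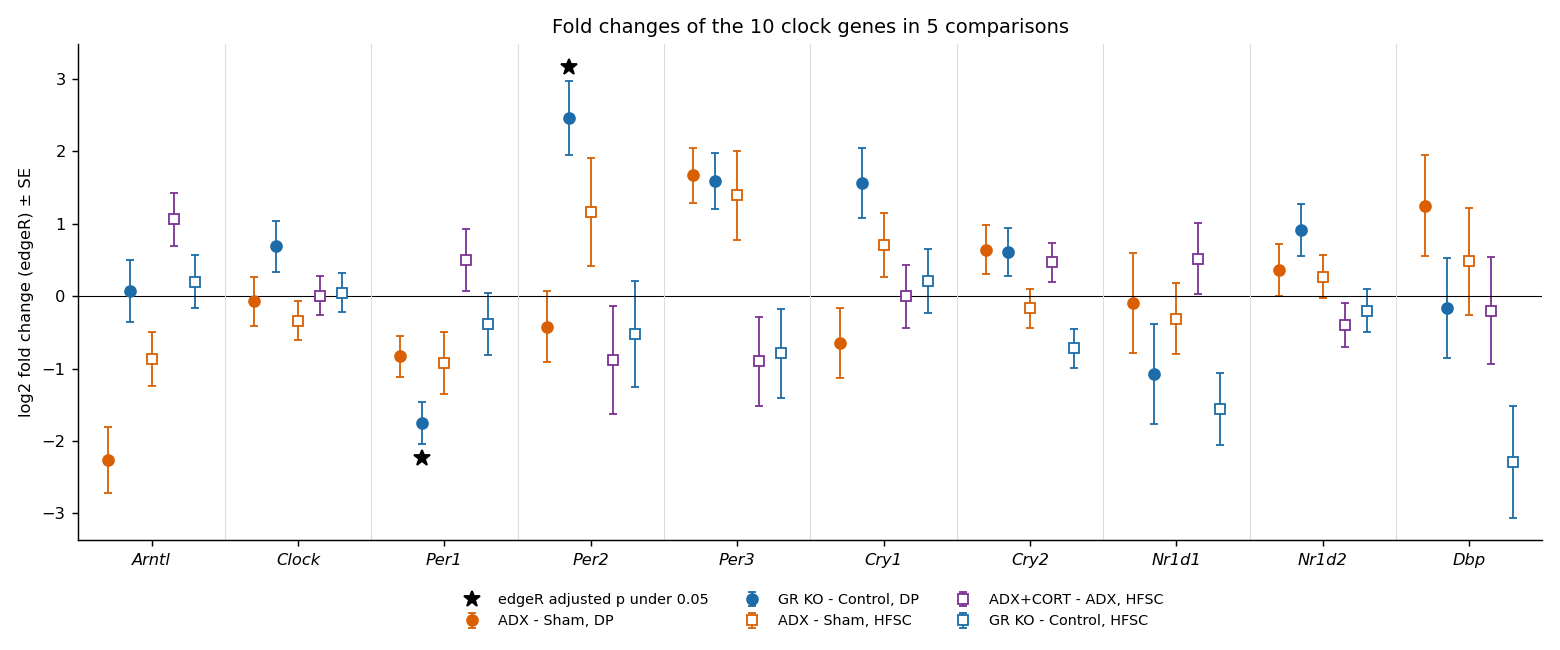
Log2 fold changes of the 10 clock genes in 5 comparisons from edgeR, with standard errors derived from the F statistic of its test. Filled circles stand for DP, open squares for HFSC and a star for an edgeR adjusted p under 0.05. Stars stand at Per1 (-1.75) and Per2 (2.46) in GR KO against Control DP; Arntl in ADX against Sham DP, at -2.26, carries none.

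A further 24 genes that work with the clock were followed as one list, 23 of which were tested in HFSC. In GR KO DP, 1 of 24 fell and none rose in edgeR (1.54% of all genes passed), and 10 had an unadjusted p under 0.05 (15.2% of all genes). DESeq2 called 4, all lower, where it called 8.01% of its genes. The median log2 fold change of the list was 0.12, against 0.17 over all genes. Klf9, a transcription factor that glucocorticoids induce and that is rhythmic in human keratinocytes, stood at 165 and 138 CPM in GR KO DP, against 449.8 and 538 CPM in Control DP (log2 fold change -1.70, SE 0.33, edgeR adjusted p = 0.0423). The call was lost without GR KO replicate 1 (edgeR adjusted p = 0.105), GR KO replicate 2 (0.164) or Control replicate 2 (0.195). Nfil3, the repressor that competes with the Dbp product at D-boxes, stood at 31.8 and 18.8 CPM in GR KO DP, against 66.0 and 124 CPM in Control DP (-1.91, SE 0.44, edgeR adjusted p = 0.0673). Bhlhe41, an E-box repressor, had a log2 fold change of -1.16 (SE 0.33) and Noct, a rhythmic gene of the deadenylase family, one of -1.13 (SE 0.33). The DESeq2 adjusted p was 4.17e-05 for Klf9, 0.000751 for Nfil3, 0.00819 for Bhlhe41 and 0.0224 for Noct.

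In ADX DP none of the 24 passed in edgeR (0.0170% of all genes did), 8 had an unadjusted p under 0.05 (11.7% of all genes) and DESeq2 called 4 (2.50% of its genes), of which 1 was higher and 3 lower; the median log2 fold change was -0.40, against 0.08 over all genes. Klf9 stood at 215 and 287 CPM in ADX DP, against 1052 and 597 CPM in Sham DP (log2 fold change -1.72, SE 0.33, edgeR adjusted p = 0.183, DESeq2 adjusted p = 0.000872). Bhlhe40, also an E-box repressor, stood at 96.7 and 195 CPM in ADX DP, against 522 and 303 CPM in Sham DP (-1.50, SE 0.38, DESeq2 adjusted p = 0.0185). Rora, which activates Arntl through ROR elements, had -1.15 (SE 0.28, DESeq2 adjusted p = 0.0478), and Tef, a D-box activator related to Dbp, had 1.04 (SE 0.26, DESeq2 adjusted p = 0.027). Without Sham replicate 2 these log2 fold changes were -2.12 for Klf9, -1.89 for Bhlhe40, -1.11 for Rora and 0.93 for Tef.

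In ADX HFSC, 1 of 23 rose in edgeR (0.295% of all genes passed) and 7 had an unadjusted p under 0.05 (15.2% of all genes), with a median log2 fold change of -0.08, against 0 over all genes. DESeq2 called 1 higher and 1 lower, where it called 6.04% of its genes. Bhlhe40 rose, with 39.4 and 41.3 CPM in ADX HFSC, against 12.4 and 15.7 CPM in Sham HFSC (log2 fold change 1.53, SE 0.28, edgeR adjusted p = 0.0471). The call was lost without ADX replicate 1 (edgeR adjusted p = 0.172), Sham replicate 1 (0.344) or Sham replicate 2 (0.153). Npas2, a partner of BMAL1 that can stand in for CLOCK, stood at 7.10 and 5.44 CPM in ADX HFSC, against 37.1 and 28.9 CPM in Sham HFSC (-2.40, SE 0.68, edgeR adjusted p = 0.122, DESeq2 adjusted p = 0.00824). Btrc, a ubiquitin ligase subunit for PER proteins, had -0.83 (SE 0.26), and Hlf, a relative of Dbp, had 1.64 (SE 0.58).

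With corticosterone, none of the 23 passed in edgeR against ADX or Sham; 6 against ADX and 3 against Sham had an unadjusted p under 0.05 (19.3% and 6.09% of all genes), and DESeq2 called 1 and 0 (9.53% and 0.438% of its genes). Their median log2 fold changes were 0.25 against ADX and 0.03 against Sham. Npas2 stood at 42.3 and 18.1 CPM in ADX+CORT HFSC, against 7.10 and 5.44 CPM in ADX HFSC (log2 fold change 2.27, SE 0.68, edgeR adjusted p = 0.0972, DESeq2 adjusted p = 0.0106), and overlapped Sham. Bhlhe40 stood at 22.9 and 26.0 CPM in ADX+CORT HFSC, between ADX and Sham HFSC. Btrc had 0.81 (SE 0.26) and Klf10, a Krüppel-like factor, 0.97 (SE 0.37) against ADX; against Sham, Klf10 had 1.08 (SE 0.37), Bhlhe40 0.80 (SE 0.28), Arntl2 0.67 (SE 0.30) and Hlf 1.04 (SE 0.57). Without ADX+CORT replicate 1, the values against ADX were 1.53 for Npas2, 0.44 for Btrc and 0.80 for Klf10, and those against Sham 0.91 for Klf10, 0.89 for Bhlhe40, 0.52 for Arntl2 and 1.70 for Hlf.

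In GR KO HFSC none of the 23 passed in edgeR (0.985% of all genes did), 7 had an unadjusted p under 0.05 (13.1% of all genes), and DESeq2 called 4 (4.91% of its genes), of which 1 was higher and 3 lower; the median log2 fold change was -0.17. Tef had -1.20 (SE 0.37, DESeq2 adjusted p = 0.0355), with means of 130.2 CPM in GR KO HFSC and 299 CPM in Control HFSC. Btrc had -0.88 (SE 0.26), and Timeless, which also acts in DNA replication, 2.28 (SE 0.61, DESeq2 adjusted p = 0.00907), with means of 25.5 CPM in GR KO HFSC and 5.24 CPM in Control HFSC. Both Timeless and the sums of markers of dividing cells were thus higher in GR KO HFSC than in Control HFSC. In ADX HFSC those sums were also higher than in Sham HFSC, but Timeless overlapped, at 8.16 and 3.16 CPM in ADX and 4.41 and 9.53 CPM in Sham. A link between them was not tested.

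Genes whose level followed a clock gene most closely were found by Pearson's r of log2 CPM over all libraries of a cell type, among 11633 DP and 10300 HFSC genes with a mean of at least 5 CPM, and are given as a description. These libraries share group, depth and replicate gaps. For Dbp in HFSC the closest gene was Tef (r = 0.934, n = 10 libraries, 0.905 without the 2 most extreme), followed by Fbxo16 (0.933, and 0.844 without them) and Fggy (0.915, and 0.616 without them). For Arntl in HFSC the closest genes were Ctbp1 (0.957), Mmp14 (0.952) and Gpsm2 (0.951), with 0.909, 0.939 and 0.937 without the 2 most extreme libraries. For Per1 in HFSC they were Errfi1 (0.963), Ccdc71l (0.899) and Napb (0.886), with 0.913, 0.674 and 0.667 without the 2 most extreme. In DP, over 8 libraries, Arntl was followed by Get4 (0.991), Daam1 (0.982) and Fastkd2 (0.979), and Per1 by Cfap298 (0.977), Chmp2a (0.952) and Zfp395 (0.951). Without the 2 most extreme libraries, r was 0.800 to 0.957 for the genes named for Arntl and 0.853 to 0.893 for those named for Per1. For Dbp in DP, Rdh14 (0.971) and Lyrm4 (0.961) rested on the extreme libraries, with r of 0.108 and -0.110 without the 2 most extreme, while Zbed6 (0.970) kept 0.853.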

How the data were processed

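RNA of sorted cells was sequenced from SMART-Seq v4 and Nextera XT libraries, which do not mark strand, per the labels' protocols. Trim Galore 0.4.1, STAR 2.5.3, Salmon, DESeq2 1.22.2 and the mm10 genome are named in the submitters' processing notes, without their roles. The DP values are estimated counts per transcript, made with Salmon by the authors as deposited. The HFSC values are raw counts per gene, made with featureCounts 1.6.1 with a minimum mapping quality of 30 and no strand setting, per the file headers.

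DP transcripts were summed to gene symbols with GENCODE annotation of GRCm38 and rounded to whole numbers; 150 of 134967 transcripts had no match and held at most 0.0752% of a library's counts. In 2 HFSC files, 27 gene names that had turned into dates were restored from their coordinates. DP and HFSC were fitted separately with edgeR 4.0.16 (R 4.3.3): TMM scaling, a filter on low counts by group, 1 mean per group, the quasi-likelihood test, and Benjamini-Hochberg adjustment over all 23463 or 15231 genes tested, with a threshold of 0.05. Biological variation between replicates, as a coefficient, was estimated at 54% (DP) and 38.7% (HFSC). The SE of an edgeR log2 fold change was derived as its absolute value divided by the square root of the F statistic of the test. CPM use TMM-scaled library sizes. Fits were tested on simulated data. Each fit was repeated with DESeq2 1.42.0, with all genes kept, with median-of-ratios scaling, with only the groups compared, with protein-coding transcripts only (DP), with a replicate block and with each library left out.

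The 10 genes, the related list and the marker lists were chosen with earlier results of these data known. Named besides the 10 genes are up to 4 related genes per comparison with the smallest p, and the 3 genes most correlated with Per1, Arntl and Dbp (log2 of CPM plus 0.1). The result of 1 related gene is not reported here.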

Additional observations from a re-analysis of the deposited data

Results flagged for a closer look

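Cry2 lay on opposite sides of Control in the DP and HFSC of GR KO mice. Its log2 fold change was 0.61 in DP, where it stood at 59.1 and 59.3 CPM in GR KO and 45.6 and 31.7 CPM in Control, and -0.72 in HFSC, where it stood at 91.6 and 63.6 CPM in GR KO and 125 and 132 CPM in Control. Both GR KO libraries were higher in DP and both were lower in HFSC. Neither fold change passed in edgeR (adjusted p = 0.429 in DP and 0.254 in HFSC), and the difference between them was not tested, because DP and HFSC were counted in different ways.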

How the results depend on the processing

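Over 80 log2 fold changes and differences of the 10 clock genes, 810 alternatives were run: 719 kept the direction and the call, or the lack of one, 58 (in 29 results) changed sign, 10 lost a call and 23 gained one, 15 of these without the filter on low counts. Only 2 of the 80 results had a call to lose, Per1 and Per2 in GR KO against Control DP, with 10 alternatives each. All 10 losses fell on these 2, and most of the 719 kept the lack of a call. With 4 (DP) and 5 (HFSC) residual degrees of freedom, small differences were not detectable. The causes of the changes below were not tested.

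The count of clock genes called was, for GR KO against Control DP (2 in the report), 1 with median-of-ratios scaling, 4 without the filter, 1 with only the groups compared, 1 with protein-coding transcripts and 0 to 1 with a library left out. For ADX against Sham DP (0) it was 2 with DESeq2 and 3 without the filter, and for the difference of effects in DP (0) 2 with DESeq2, 3 without the filter and 0 to 1 with a library left out. In HFSC, where all were 0, it was 1 without the filter for ADX against Sham and for ADX+CORT against ADX, 3 for the difference of effects, and 2 for GR KO against Control both without the filter and with only the groups compared.

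Over all genes, calls for ADX against Sham DP (4) were 470 with DESeq2, 894 without the filter, 0 with only the groups compared, 8 with protein-coding transcripts and 1 to 12 with a library left out. For GR KO against Control DP (361) they were 1376 with DESeq2, 1456 without the filter, 142 with only the groups compared and 19 to 226 with a library left out. For ADX against Sham HFSC (45) they were 840, 888, 93 and 0 to 235 in the same order. For ADX+CORT against ADX (0) they were 1326 with DESeq2, 1309 without the filter and 0 to 549 with a library left out, and for ADX+CORT against Sham (0) 61, 184 and 0 to 4, with 2 when only the groups compared were fitted. For GR KO against Control HFSC (150) they were 721, 840 and 5 to 336.

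The labels do not tie replicate numbers to shared animals, and same-numbered libraries deviated together little (r from -0.148 to 0.22 in DP and from -0.079 to 0.041 in HFSC). With a replicate block, 2 clock genes were called in GR KO against Control DP, as without it. Over all genes, the block gave 10 calls for ADX against Sham DP and 9 for ADX against Sham HFSC, where the Bhlhe40 call was lost (edgeR adjusted p = 0.0668). All alternatives for related genes, such as Bhlhe40 and Klf9, were chosen after seeing the data.

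Log2 fold changes that changed sign are given next. With protein-coding transcripts, ADX against Sham DP gave 0.13 for Clock and 0.17 for Nr1d1 (0.22 with the block), and the difference of effects in DP gave -0.03 for Nr1d2. Arntl in GR KO against Control DP was -0.02 with DESeq2, -0.03 with median-of-ratios scaling, -0.09 without the filter, -0.05 with only the groups compared and -0.12 with protein-coding transcripts. Clock in ADX+CORT against ADX was -0.01 with DESeq2 and with median-of-ratios scaling and -0.001 with the block.

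With a library left out, ADX against Sham DP ran from -0.83 to 0.04 for Per2, -0.64 to 0.30 for Clock, -0.98 to 2.16 for Nr1d1 and -0.12 to 0.96 for Nr1d2, and GR KO against Control DP from -0.19 to 0.31 for Arntl and -0.70 to 0.23 for Dbp. The difference of effects ran from -0.51 to 0.33 for Per3, -0.45 to 0.13 for Cry2 and -0.04 to 0.91 for Nr1d2 in DP, and from -0.13 to 1.13 for Per1 in HFSC. ADX against Sham HFSC ran from -0.38 to 0.03 for Cry2 and -1.26 to 0.25 for Nr1d1. ADX+CORT against ADX ran from -0.10 to 1.09 for Per1, -0.13 to 0.11 for Cry1, -0.25 to 0.21 for Clock, -0.54 to 1.47 for Nr1d1 and -2.72 to 0.67 for Dbp. ADX+CORT against Sham ran from -1.73 to 1.48 for Per2, -1.20 to 1.24 for Per3, -0.09 to 0.59 for Cry2, -0.22 to 0.48 for Arntl, -0.85 to 0.81 for Nr1d1, -0.58 to 0.21 for Nr1d2 and -2.24 to 1.15 for Dbp. GR KO against Control HFSC ran from -1.05 to 0.08 for Per1, -0.17 to 0.51 for Cry1, -0.15 to 0.54 for Arntl, -0.15 to 0.28 for Clock and -0.61 to 0.12 for Nr1d2.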
